A study of Mus musculus with 6 samples.

Results

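The genes described here encode the proteasome: the subunits of its core and regulatory particles, with the chaperones that assemble it and the proteins that activate or regulate it. They were chosen by symbol, as the genes named Psma to Psmg with a number, leaving out the interferon-induced catalytic subunit genes Psmb8, Psmb9 and Psmb10. That rule found 45 genes among 24391 in the annotation used. RNA was sequenced from 6 libraries of mRPMaxKO, a cell line grown from a mouse lung tumour that lacks Max. In this laboratory's mouse model of small cell lung cancer the letters RP stand for loss of Rb1 and p53. The strain background was 129/SvJ; C57BL/6, the cells were below passage 20, and every library came from a polyclonal, puromycin-selected population that carried a lentiviral vector inducible by doxycycline. In 3 libraries MAX was restored, and 3 were controls; the treatment text, given for all 6, states 4 days of doxycycline. The labels do not say what vector the control cells carried, whether they too received doxycycline, or whether replicate libraries were grown as separate cultures. The p-values below therefore measure the spread between these libraries, which may be technical, and differences of vector or drug cannot be told apart from MAX.

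The proteasome degrades proteins tagged with ubiquitin. Its barrel-shaped core, the 20S particle, stacks rings of alpha subunits, which form the gate, around rings of beta subunits, of which Psmb5, Psmb6 and Psmb7 carry the proteolytic sites. The 19S particle caps the barrel: a ring of ATPases (the Psmc genes) unfolds the substrate, scaffold and receptor subunits of the base bind ubiquitin, and the lid holds Psmd14, the enzyme that removes ubiquitin chains. When proteasome activity falls short in mammalian cells, the transcription factor NRF1 (gene Nfe2l1) is processed and raises the subunit genes together through antioxidant response elements. MAX forms pairs with MYC and with other partners, and such pairs bind the E-box CACGTG.

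Both of these motifs were looked for in the RefSeq promoter windows of the series' genes (GRCm38.p6, 250 bases before to 50 after the start), which were found for 37 of the 45 proteasome genes. The E-box, spelled CACGTG on either strand, was present in 3 of the 37 (8.11%), in Psma4, Psmd9 and Psme3, against 7.15% of all 32851 windows and 11.9% of the 9671 tested genes with a window. The core of the antioxidant response element, spelled TGACNNNGC and searched on both strands, was present in 6 of the 37 (16.2%), against 12.4% of all windows and 17.3% of tested genes. The 250 bases before the start are shown for the 3 E-box genes and for the catalytic subunit genes Psmb5 and Psmb6, with each match to either motif in capitals. They are given 5′ to 3′ on the gene's own strand.
Psma4, chr9:54950609-54950858, plus strand: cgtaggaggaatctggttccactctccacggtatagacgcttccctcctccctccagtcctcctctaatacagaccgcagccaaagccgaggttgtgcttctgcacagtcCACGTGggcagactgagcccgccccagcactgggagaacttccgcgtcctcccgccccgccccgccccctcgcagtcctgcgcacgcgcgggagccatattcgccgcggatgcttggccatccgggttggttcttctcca
Psmd9, chr5:123227940-123228189, plus strand: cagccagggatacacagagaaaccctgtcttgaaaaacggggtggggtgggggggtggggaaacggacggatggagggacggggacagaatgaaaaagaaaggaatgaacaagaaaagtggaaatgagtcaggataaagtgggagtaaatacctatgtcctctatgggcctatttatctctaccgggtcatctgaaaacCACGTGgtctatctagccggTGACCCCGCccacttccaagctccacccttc
Psme3, chr11:101315963-101316212, plus strand: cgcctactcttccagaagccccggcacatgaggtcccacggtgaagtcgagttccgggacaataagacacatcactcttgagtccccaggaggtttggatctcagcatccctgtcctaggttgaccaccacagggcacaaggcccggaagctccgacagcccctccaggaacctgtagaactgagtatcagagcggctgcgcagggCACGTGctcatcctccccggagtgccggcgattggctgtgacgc
Psmb5, chr14:54617996-54618245, minus strand: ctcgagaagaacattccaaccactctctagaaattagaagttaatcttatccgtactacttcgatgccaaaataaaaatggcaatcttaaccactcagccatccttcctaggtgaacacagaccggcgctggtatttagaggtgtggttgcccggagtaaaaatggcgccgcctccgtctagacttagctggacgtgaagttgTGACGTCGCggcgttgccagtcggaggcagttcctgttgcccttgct
Psmb6, chr11:70525107-70525356, plus strand: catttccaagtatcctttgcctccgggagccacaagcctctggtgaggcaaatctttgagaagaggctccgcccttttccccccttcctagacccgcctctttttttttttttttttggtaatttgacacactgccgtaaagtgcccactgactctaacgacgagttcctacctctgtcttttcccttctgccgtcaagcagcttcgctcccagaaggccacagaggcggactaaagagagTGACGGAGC
In these stretches the E-box begins 140 bases before the start of Psma4, 51 before that of Psmd9 and 44 before that of Psme3. The antioxidant response element core begins 47 bases before the start of Psmb5, 9 before that of Psmb6 and 31 before that of Psmd9. A match says that these letters are present, not that a factor binds there.

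Library totals lay between 10253303 and 11925909 counts with MAX restored and between 10046899 and 10425210 in controls. Max itself, the check of the labels, had 15979, 14933 and 13369 counts in MAX restored libraries 1, 2 and 3, against 639, 691 and 620 in controls 1, 2 and 3. Control 1 stood apart from its group. It had 101661 counts of the ribosomal RNA gene Rn45s, where the MAX restored libraries had 12851 to 19140 and the other two controls 19493 and 10934; the part of this in the results was not tested. A chi-square statistic of the counts, divided by its degrees of freedom, gave 1.24 to 1.46 for pairs of MAX restored libraries. It gave 8.91 and 10.2 for the pairs that include control 1, and 1.5 for controls 2 and 3. Rn45s was among the genes it covered, all those with at least 20 counts in the pair. These values thus do not show how many other genes departed. The neuroendocrine markers that define the tumour type were expressed, with a summed level of 8729 to 9038 CPM (counts scaled to library size) with MAX restored and 8639 to 8878 CPM in controls over 8 genes. Markers of fibroblasts (7 genes), immune cells (6) and endothelium (4) each summed to under 4 CPM in every library, with Cd3e and Cdh5 at 0 throughout. Fewer cells of a kind and less RNA per cell cannot be told apart in such bulk samples.

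Of the 45 genes, 43 had enough counts to be tested. The other two are forms made for particular organs: Psma8, the alpha subunit of the testis, had 0 counts in all 6 libraries, and Psmb11, the beta subunit of the thymic cortex, had 1 count, in control 3. With MAX restored 24 of the 43 were lower (edgeR quasi-likelihood test, Benjamini-Hochberg adjusted p under 0.05), where 32.3% of all 12664 genes tested were. Higher were 3 of the 43, where 31.2% of all genes were. The median log2 fold change, MAX restored over control, was -0.17 for the proteasome genes and -0.0036 for all genes. Of the 24 lower genes 15 were so by at least 0.25 on the log2 scale, where 23.4% of all genes were, and of the 3 higher 1 was, where 23.7% were. The CPM of the groups did not overlap in 27 genes with MAX restored below control (33.8% of all genes) and in 4 with MAX restored above (33.2%). The shifts were small, between -0.64 for the assembly chaperone gene Psmg4 and 0.32 for the activator gene Psme1. The summed share of all counts was 0.490%, 0.477% and 0.486% in MAX restored libraries 1, 2 and 3, against 0.534%, 0.526% and 0.522% in controls 1, 2 and 3. Each MAX restored library thus gave a smaller share to these genes than each control.

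**Figure D1:**
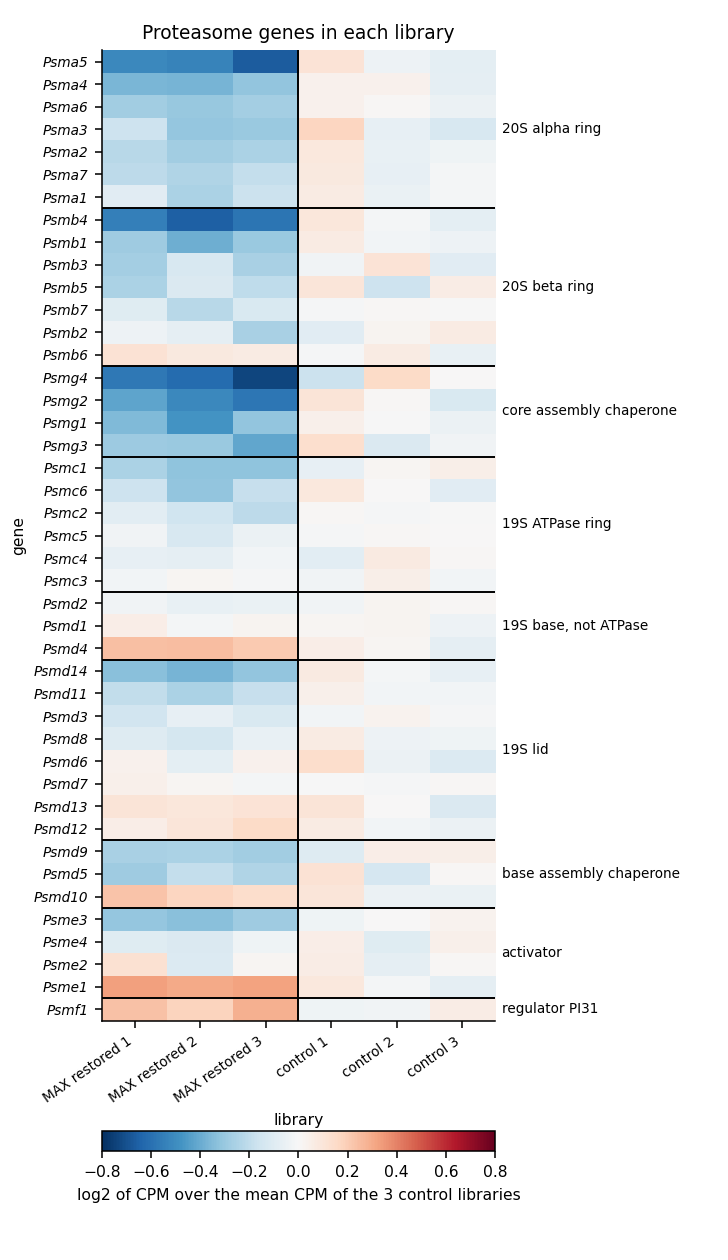
Heat map of the 43 tested proteasome genes (rows, grouped by their place in the complex) in the 3 MAX restored and 3 control libraries (columns). Colour is the log2 of a gene's CPM over the mean CPM of the 3 controls; the alpha ring and the core assembly chaperones are blue in every MAX restored library, whereas Psmd4, Psme1 and Psmf1 are red.

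Counts by class were as follows. In the core 11 of 14 tested subunit genes were lower and 0 higher, with a median log2 fold change of -0.23. Of the 6 ATPase genes 3 were lower and 0 higher (median -0.11). Of the 8 lid genes 3 were lower and 0 higher (median -0.05). Of the 3 other base genes 0 were lower and 1 was higher (median 0.02). CPM of the groups did not overlap, with MAX restored below control, in 11 of the 14 core genes, 4 of the 6 ATPase genes and 4 of the 8 lid genes. Of all genes tested 32.3% were lower and 31.2% higher, and 33.8% had groups apart with MAX restored below control. The share lower in the lid, 37.5%, lay near that of all genes. The class counts are descriptions, and the difference between classes was not tested.

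Exon length moved with the result and its part in it was not tested, beyond removing the trend. Across all genes tested, short genes were lower with MAX restored: among genes other than these, those with up to 1000 bases of exon had a median log2 fold change of -0.17 with 43.9% lower, those of 1000 to 1500 bases -0.12 with 40.7% lower, and those of 3000 to 5000 bases 0.04 with 28.7% lower. The core subunit genes are short, with a median exon length of 1016.5 bases (both middle values averaged), against 1528 for the ATPase, 1581.5 for the lid and 2970 for all genes tested. Of the 12 proteasome genes with up to 1000 bases, 8 were lower and their median was -0.23. Of the 13 with 1000 to 1500 bases, 7 were lower (median -0.17). Of the 10 with 1500 to 2000 bases 5 were lower (median -0.13, beside -0.05 and 36.1% lower for the other genes of that length). All 4 with 2000 to 3000 bases were lower (median -0.25, beside -0.02 and 33.5% lower). Of the 3 with 3000 to 5000 bases 0 were lower and 1 was higher, and the 1 longer gene was not called. With a smooth trend on length removed in each library, 17 of the 43 were lower and 7 higher, where 30.7% and 31.3% of all genes were. The core then had 6 lower and 1 higher (median -0.11), the ATPase ring 2 lower (median -0.02), and the lid 2 lower and 2 higher (median 0.04). Without control 1, 25 of the 43 were lower and 6 higher, where 32.9% and 31.5% of all genes were.

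**Figure D2:**
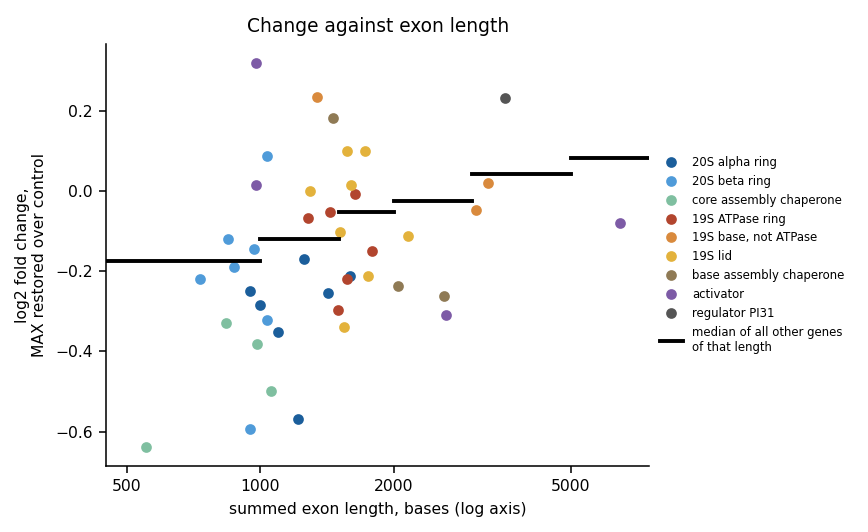
Log2 fold change (MAX restored over control) of the 43 tested proteasome genes against summed exon length in bases on a log axis, coloured by class. Black lines are the medians of all other tested genes in 6 length classes, running from -0.17 at up to 1000 bases to 0.08 above 5000.

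Every gene of the alpha ring, which gates the entry to the proteolytic chamber, was lower with MAX restored: 7 of 7, with log2 fold changes between -0.57 and -0.17 and no overlap between the groups in any of them. Of all genes tested 32.3% were lower, and 33.8% had groups apart with MAX restored below control. Psma5 changed most. It had 14.1, 13.9 and 12.7 CPM in MAX restored libraries 1, 2 and 3, against 21.8, 19.7 and 19.1 CPM in controls 1, 2 and 3 (log2 -0.57, SE 0.10, edgeR adjusted p = 3.24e-05). All MAX restored values thus lay well below the lowest control. Psma1 changed least, with 143, 128 and 136 CPM in MAX restored libraries 1, 2 and 3, against 160, 147 and 151 CPM in the controls (log2 -0.17, SE 0.05, edgeR adjusted p = 0.00776). Here the highest MAX restored value came close to the lowest control. The E-box gene Psma4 lay at -0.35, close to the median of its 50 tested neighbours (-0.32). The part of the region in its value was not tested. Psma6 lay at -0.28, Psma3 at -0.25, Psma2 at -0.25 and Psma7 at -0.21. With the length trend removed Psma5, Psma4, Psma6 and Psma7 were still lower, at -0.44, -0.21, -0.13 and -0.13, while Psma1 (-0.05), Psma2 (-0.09) and Psma3 (-0.15) did not pass. Psma3 no longer passed without control 1 (-0.16, edgeR adjusted p = 0.140) or without MAX restored 2 or 3 (-0.22 and -0.23), nor did Psma1 without MAX restored 2 (-0.12). By DESeq2, too, Psma3 did not pass (adjusted p = 0.0958).

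The beta ring was lower in 4 of 7, where 32.3% of all genes were lower. It held Psmb4, whose change was the largest among the tested core, base and lid genes of the symbol rule. Psmb4, a beta subunit without a proteolytic site of its own, had 174, 161 and 169 CPM in MAX restored libraries 1, 2 and 3, against 270, 250 and 240 CPM in controls 1, 2 and 3. It was 33.7% lower with MAX restored (log2 -0.59, SE 0.05, edgeR adjusted p = 2.10e-09), with a wide gap between the groups, and stayed at -0.43 with the length trend removed. In mm9 the gene lies on chromosome 3 from 94688246 to 94690880 on the minus strand, and no 50-base stretch of its transcripts was found in another gene's. The other non-catalytic beta genes were Psmb1 (-0.32) and Psmb3 (-0.22), which were lower, and Psmb2 (-0.12), which did not pass. Psmb3 was lost with the length trend removed (-0.025, edgeR adjusted p = 0.781) and without MAX restored 1 (-0.19), MAX restored 3 (-0.19) or control 2 (-0.16), and by DESeq2, and Psmb2 was lower without control 1 (-0.16, edgeR adjusted p = 0.00369).

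The 3 catalytic genes did not move together. Psmb7, the trypsin-like subunit, had 157, 143 and 154 CPM in MAX restored libraries 1, 2 and 3, against 166, 169 and 167 CPM in the controls, and was lower (log2 -0.15, SE 0.05, edgeR adjusted p = 0.0113); its value was 0.014 with the length trend removed, and -0.10 without MAX restored 2, neither past the threshold. Psmb5, the chymotrypsin-like subunit, had 20.7, 22.7 and 21.4 CPM with MAX restored, against 26.3, 22.0 and 25.7 CPM in controls, so that the groups overlapped through control 2 (log2 -0.19, SE 0.09, edgeR adjusted p = 0.0672); without control 2 it was lower (-0.27, edgeR adjusted p = 0.0155). Psmb6, the caspase-like subunit, had 128, 124 and 123 CPM with MAX restored, against 117, 123 and 113 CPM in controls (log2 0.09, SE 0.05, edgeR adjusted p = 0.127). Its values overlapped at control 2, and with the length trend removed it was higher (0.24, edgeR adjusted p = 0.000249). Both Psmb5 and Psmb6 hold an antioxidant response element core in the stretches printed above, and neither passed the test.

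Core particles are built with help from dedicated chaperones. Psmg1 and Psmg2 form a pair that collects the alpha subunits, and Psmg3 and Psmg4 a second pair that acts on the same ring. All 4 genes were lower with MAX restored, at a median of -0.44 on the log2 scale, where 32.3% of all genes were lower. The groups did not overlap in any of them, where 33.8% of all genes were apart in that direction. Psmg4 had 19.9, 19.4 and 17.8 CPM in MAX restored libraries 1, 2 and 3, against 26.3, 32.9 and 29.7 CPM in controls 1, 2 and 3. It was 35.7% lower (log2 -0.64, SE 0.09, edgeR adjusted p = 4.58e-06), the deepest fall among the proteasome genes. Its 50 tested neighbours on chromosome 13 had a median of -0.18, with 25 of them lower. Psmg3, the least changed, had 17.2, 17.2 and 15.8 CPM with MAX restored, against 23.1, 19.5 and 20.7 CPM in controls (log2 -0.33, SE 0.09, edgeR adjusted p = 0.00437). Psmg2 lay at -0.50 and Psmg1 at -0.38. With the length trend removed 3 of the 4 were still lower, Psmg3 being the exception at -0.15.

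Pomp, a further maturation factor of the core that the symbol rule does not take, gave 87.4, 81.1 and 86.9 CPM in MAX restored libraries 1, 2 and 3, against 101, 85.5 and 87.0 CPM in controls, and did not pass (log2 -0.10, edgeR adjusted p = 0.144). Akirin2, which takes part in the nuclear import of proteasomes, was lower, at 60.3, 65.8 and 67.2 CPM with MAX restored, against 82.0, 77.2 and 75.5 CPM in controls (log2 -0.28, SE 0.05). These came from a list of 9 other proteasome parts and assembly factors, of which 8 were in the annotation. In it 4 of 8 were lower and 0 higher, the median being -0.19, where 32.3% of all genes were lower. The other 3 lower genes are the interferon-induced catalytic subunit genes described further on, so that Akirin2 was the only one called among the remaining 5.

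In the ring of ATPases, which unfold substrates and open the gate of the core, Psmc1, Psmc6 and Psmc2 were lower and Psmc5, Psmc4 and Psmc3 did not pass. Psmc1 had 123, 117 and 117 CPM in MAX restored libraries 1, 2 and 3, against 140, 148 and 151 CPM in controls 1, 2 and 3 (log2 -0.30, SE 0.05, edgeR adjusted p = 2.27e-05). Psmc3 had 179, 184 and 181 CPM with MAX restored, against 179, 188 and 179 CPM in controls (log2 -0.0065, SE 0.04, edgeR adjusted p = 0.905). The groups of Psmc1 were clearly apart and those of Psmc3 lay on top of each other. Psmc6 lay at -0.22 and Psmc2 at -0.15, with Psmc5 at -0.07 and Psmc4 at -0.05. Psmc2 was lost with the length trend removed (-0.09) and without MAX restored 2 or 3 (-0.14 and -0.12), and Psmc4 was lower without control 1 (-0.10, edgeR adjusted p = 0.0268).

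The remaining base genes encode the scaffolds Psmd1 and Psmd2, the largest subunits of the complex, and the ubiquitin receptor Psmd4. Psmd4 was higher: it had 136, 137 and 133 CPM in MAX restored libraries 1, 2 and 3, against 119, 116 and 109 CPM in controls 1, 2 and 3 (log2 0.23, SE 0.05, edgeR adjusted p = 0.000313), with no overlap. It was the only gene among the subunits of core, base and lid to pass in that direction, and it lay at 0.35 with the length trend removed. Psmd2 had 278, 271 and 273 CPM with MAX restored, against 278, 287 and 284 CPM in controls (log2 -0.05, SE 0.04, edgeR adjusted p = 0.282), and Psmd1 lay at 0.02. Of the subunits that complete the 19S particle but carry other names, the ubiquitin receptor Adrm1 (0.06) and the small lid subunit gene Shfm1 (-0.04) did not pass either.

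In the lid 3 of 8 genes were lower (37.5%), near the 32.3% of all genes, and its enzyme changed most. Psmd14, the deubiquitinase, had 103, 99.8 and 104 CPM in MAX restored libraries 1, 2 and 3, against 136, 128 and 124 CPM in controls 1, 2 and 3. It was 21.0% lower, without overlap (log2 -0.34, SE 0.05, edgeR adjusted p = 5.88e-06), and at -0.25 with the length trend removed. Psmd11, a lid subunit that contacts the core, lay at -0.21 and Psmd3, a scaffold of the lid, at -0.11; both were lower, though Psmd3 was lost with the length trend removed (-0.072) and without MAX restored 1, MAX restored 3 or control 2 (-0.09, -0.10 and -0.10). Psmd12 had 148, 153 and 159 CPM with MAX restored, against 149, 141 and 139 CPM in controls (log2 0.10, SE 0.05, edgeR adjusted p = 0.0780), and overlapped through control 1. Psmd13 gave 155, 154 and 155 CPM with MAX restored, against 155, 145 and 133 CPM in controls (log2 0.10, SE 0.05, edgeR adjusted p = 0.102), also overlapping through control 1. Without control 1 both were higher, Psmd12 at 0.13 (edgeR adjusted p = 0.00276) and Psmd13 at 0.15 (edgeR adjusted p = 0.000513). Psmd8 (-0.10), Psmd6 (-0.0005) and Psmd7 (0.01) did not pass.

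**Figure D3:**
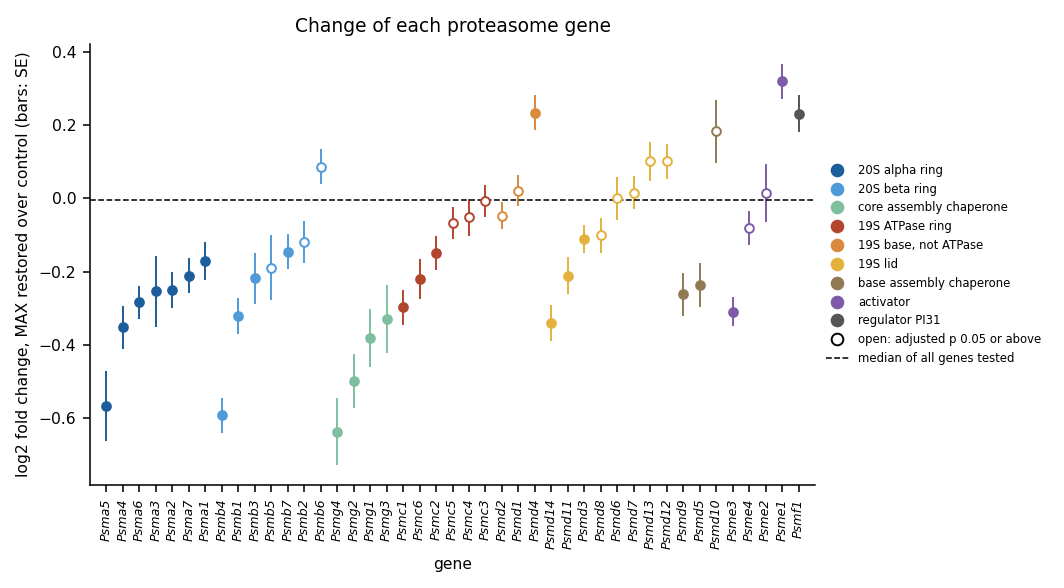
Log2 fold change, MAX restored over control, of each tested proteasome gene with its SE (bars), ordered by class; filled points passed an adjusted p of 0.05 and the dashed line is the median of all genes tested. Values run from -0.64 (Psmg4) to 0.32 (Psme1).

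Assembly of the base has its own chaperones, Psmd5, Psmd9 and Psmd10. Psmd9, whose promoter window holds both motifs, had 44.95, 45.1 and 44.5 CPM in MAX restored libraries 1, 2 and 3, against 50.04, 55.8 and 55.6 CPM in controls 1, 2 and 3, and was lower (log2 -0.26, SE 0.06, edgeR adjusted p = 0.000606). Psmd5 was lower as well, at -0.24. Psmd10, also called gankyrin, had 22.4, 21.4 and 21.0 CPM with MAX restored, against 20.4, 18.4 and 18.3 CPM in controls; the groups did not overlap, but the test was not passed (log2 0.18, SE 0.09, edgeR adjusted p = 0.0702). It was higher without control 1, at 0.23 (edgeR adjusted p = 0.0250), and with the length trend removed, at 0.28.

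The activators, which dock on the core in place of the 19S particle, included both a fall and the largest rise. Psme3, the nuclear activator PA28 gamma and an E-box gene, had 227, 224 and 231 CPM in MAX restored libraries 1, 2 and 3, against 275, 283 and 287 CPM in controls 1, 2 and 3. It was lower by 19.3% (log2 -0.31, SE 0.04, edgeR adjusted p = 9.67e-07), a gap several times the spread within either group. Psme1, the alpha subunit of the interferon-inducible activator PA28, had 189, 185 and 188 CPM with MAX restored, against 159, 149 and 143 CPM in controls. It was 24.8% higher (log2 0.32, SE 0.05, edgeR adjusted p = 8.69e-06), again with no overlap. Its partner Psme2, the beta subunit of the same activator, also on chromosome 14, had 30.4, 26.0 and 28.2 CPM with MAX restored, against 29.2, 26.6 and 28.1 CPM in controls (log2 0.01, SE 0.08, edgeR adjusted p = 0.878). Of the distinct 50-base stretches of Psme2 transcripts 54.9% also occur in Psme2b, so reads from them could not be assigned. Psme4, the activator PA200, lay at -0.08 and did not pass; it was lower with the length trend removed (-0.15) and without control 2 (-0.13).

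Psmf1, the regulator PI31, had 76.3, 73.2 and 78.9 CPM in MAX restored libraries 1, 2 and 3, against 63.3, 63.6 and 67.7 CPM in controls 1, 2 and 3. It was higher (log2 0.23, SE 0.05, edgeR adjusted p = 0.000557), with no overlap. The 50 tested genes around it on chromosome 2 had a median of -0.12, with 24 lower and 9 higher. Among the 43 genes such neighbourhood medians lay between -0.32 and 0.13; the lowest was that of Psma4 on chromosome 9, where 27 of 50 neighbours were lower.

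Levels of different genes were compared per length, as TPM, in which each count is divided by exon length and scaled to the library's sum. The summed core level was 3548, 3403 and 3483 TPM in MAX restored libraries 1, 2 and 3, against 4062, 3996 and 3961 TPM in controls 1, 2 and 3. The ATPase ring summed to 1750, 1692 and 1740 TPM with MAX restored, against 1755, 1843 and 1819 TPM in controls, and the lid to 1994, 1995 and 2038 TPM with MAX restored, against 2049, 2004 and 1974 TPM in controls. In TPM the core sums of the groups were thus apart, those of the ATPase ring were apart by a small gap, and those of the lid overlapped. Psmb4 alone gave 517 of the mean core sum of 3478 TPM with MAX restored, and 750 of 4007 TPM in controls. Per tested subunit, the mean core TPM was 0.989 ± 0.0239 times the mean lid TPM with MAX restored and 1.14 ± 0.00685 times in controls (SD, n = 3 each). The core chaperones summed to 302 ± 10.3 TPM with MAX restored and 410 ± 11.6 TPM in controls (SD, n = 3 each). TPM and CPM are scaled over different totals, and short genes weigh more in a TPM sum than in a CPM sum. The class differences varied between TPM and CPM. In CPM the lid sums were apart, at 1148 to 1164 with MAX restored and 1169 to 1239 in controls. The summed activators with MAX restored were 0.958 times the controls in CPM but 1.09 times in TPM.

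Subunits that the complex holds in equal numbers had unequal levels. In the ATPase ring the TPM means with MAX restored ran from 225 (Psmc2) to 423 (Psmc5), and in controls from 240 to 426 for the same genes. In the lid they ran from 101 (Psmd11) to 401 (Psmd3) with MAX restored and from 113 to 417 in controls. The core spanned 32.6 TPM (Psma5) to 517 TPM (Psmb4) with MAX restored, and 41.8 TPM (Psma3) to 750 TPM (Psmb4) in controls. The 5 lowest core genes were Psma5, Psma3, Psmb5, Psma4 and Psmb3 in both groups. Of their distinct 50-base transcript stretches 55.4%, 22.0%, 54.1%, 23.7% and 55.8%, in that order, also occur in transcripts of other genes, and in each the gene that shared most was a pseudogene. In the other 9 core genes that share was at most 2.95%, except 28.1% in Psmb7, whose annotated transcripts overlap those of Nek6. Reads that map to several places were not counted under the authors' settings, so the levels of those 5 genes are uncertain; how far the counts missed them was not tested.

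**Figure D4:**
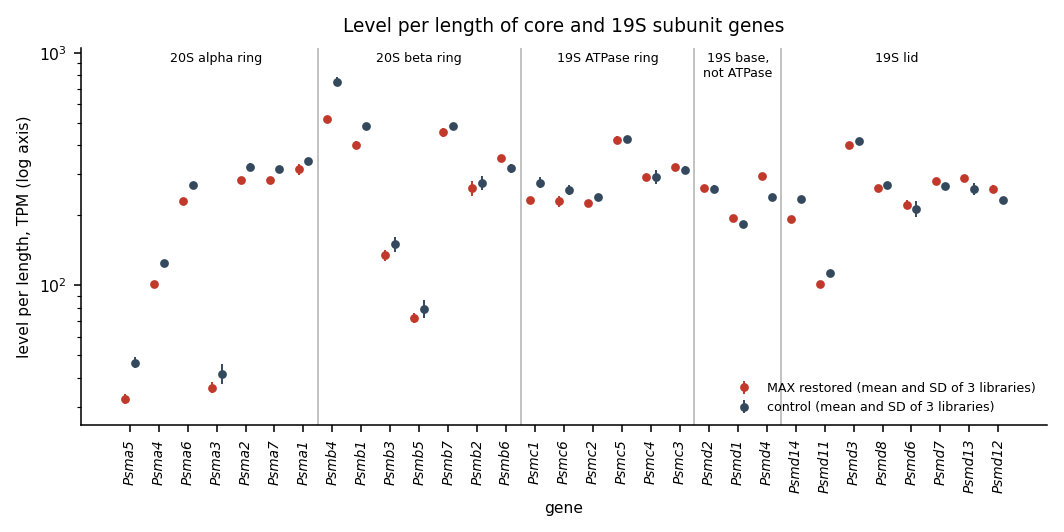
Level per length (TPM, log axis) of the core, ATPase, base and lid genes in MAX restored (red, left of each pair) and control libraries (dark), as mean and SD of 3 libraries each. Psmb4 stands highest at 517 TPM with MAX restored and 750 TPM in controls, and Psma5, Psma3, Psmb5, Psma4 and Psmb3 lie lowest in the core.

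Among genes that control proteasome expression more were higher than lower. In a list of 10 regulators, 6 were higher and 3 lower with MAX restored (median log2 fold change 0.17), where 31.2% of all genes were higher and 32.3% lower. Ddi2, the protease that cuts NRF1 into its active form, had 101, 99.99 and 104 CPM in MAX restored libraries 1, 2 and 3, against 63.9, 58.2 and 63.8 CPM in controls 1, 2 and 3. It was 1.64-fold higher (log2 0.71, SE 0.05, edgeR adjusted p = 1.82e-10), the groups being far apart. Its 50 tested neighbours on chromosome 4 were mostly higher too, with a median of 0.51, 43 of them higher and 2 lower, and the part of the region in its value was not tested. Ngly1, the glycanase that edits NRF1, had 24.0, 21.5 and 23.7 CPM with MAX restored, against 17.5, 18.1 and 13.6 CPM in controls (log2 0.49, SE 0.10, edgeR adjusted p = 0.000334). Syvn1, the ubiquitin ligase of the endoplasmic reticulum that turns NRF1 over, was 1.33-fold higher (log2 0.41, SE 0.06). Nfe2l1 itself had 587, 582 and 585 CPM with MAX restored, against 603, 631 and 632 CPM in controls, and was slightly lower (log2 -0.09, SE 0.03, edgeR adjusted p = 0.0213). Nfe2l2, which encodes the related factor NRF2, was higher at 0.20, and Foxo4 was lower at -0.53 (SE 0.06). With the length trend removed 5 were higher and 2 lower, and without control 1, 5 were higher and 3 lower.

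**Figure D5:**
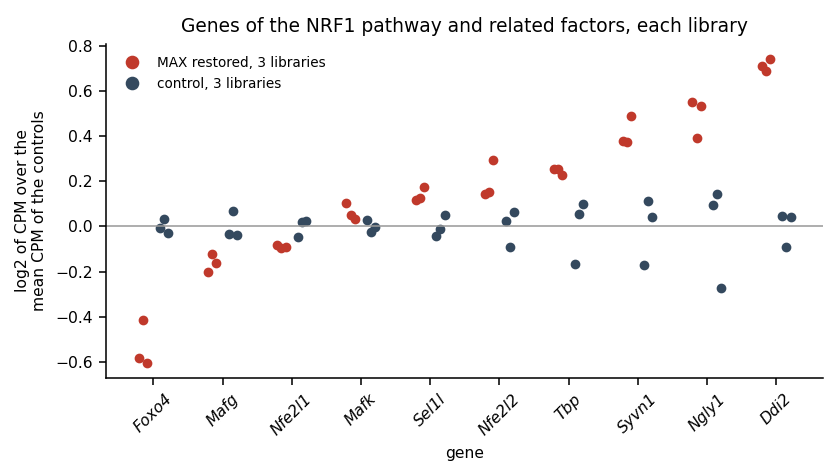
CPM of 10 regulator genes in each library as log2 over the mean of the 3 controls (y axis), MAX restored libraries in red on the left of each gene and controls dark on the right. The MAX restored points of Ddi2 lie near 0.7 and those of Foxo4 lie lowest, while Nfe2l1 sits just under its controls.

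Upstream of the proteasome, genes that supply or activate ubiquitin were examined. Uba6, an enzyme that activates ubiquitin, had 48.3, 47.0 and 50.5 CPM in MAX restored libraries 1, 2 and 3, against 27.3, 28.7 and 26.0 CPM in controls 1, 2 and 3, and was 1.78-fold higher (log2 0.83, SE 0.06, edgeR adjusted p = 1.13e-09). Uba1, the main such enzyme, was higher at 0.10, but not past the threshold with the length trend removed (0.049, edgeR adjusted p = 0.195). Ubb, which encodes ubiquitin, was higher at 0.20 with overlapping groups, and did not pass without control 1, MAX restored 1 or MAX restored 3. In all, 3 of the 6 genes of this list were higher (median 0.13), where 31.2% of all genes were, and without control 1, 2 were higher.

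Of 13 genes for proteasome-bound ubiquitin enzymes and shuttle factors 5 were lower and 0 higher (median -0.05), where 32.3% of all genes were lower and 31.2% higher. Txnl1, a thioredoxin-like protein bound to the proteasome, lay at -0.27, Zfand5, a proteasome activator, at -0.26, the deubiquitinase gene Usp14 at -0.23 and the shuttle gene Ubqln4 at -0.21, close to the median of its 50 neighbours (-0.20). Of 10 genes for the segregase p97 (Vcp) and its cofactors 5 were lower and 0 higher (median -0.07), led by Ubxn1 (-0.25), Faf2 (-0.24), Ubxn7 (-0.22) and Ubxn6 (-0.17), with Vcp itself at 0.08 and not past the threshold. Beside these counts, 32.3% of all genes were lower and 31.2% higher. With the length trend removed the p97 list had 3 lower and 1 higher, and Ubxn1 (-0.094) and Ubxn6 (-0.10) no longer passed.

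The interferon-induced catalytic subunits, which replace the standard ones in immunoproteasomes, were scarce and lower. Psmb10 had 14.1, 11.5 and 12.8 CPM in MAX restored libraries 1, 2 and 3, against 20.8, 20.9 and 20.3 CPM in controls 1, 2 and 3 (log2 -0.69, SE 0.10, edgeR adjusted p = 4.04e-06). Psmb9 lay at -0.61 (SE 0.14) and Psmb8 at -0.47 (SE 0.19). The call of Psmb8 was lost with the length trend removed (-0.34, edgeR adjusted p = 0.135) and without MAX restored 1, MAX restored 3, control 2 or control 3, and by DESeq2. The groups did not overlap in any of the 3, where 33.8% of all genes were apart with MAX restored below control. Psmb8 and Psmb9 lie on chromosome 17 on either side of Tap1, and share a neighbourhood median of -0.12. Psme1, which belongs to the same interferon-inducible set, was higher, as described above. Among 10 other genes of interferon-responsive antigen processing 4 were lower and 2 higher (median -0.19), near the 32.3% lower and 31.2% higher of all genes. Erap1 (-0.68), Tap1 (-0.62) and H2-K1 (-0.36) were lower and Tapbp (0.16) higher.

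The 3 genes with an E-box, Psma4, Psmd9 and Psme3, were each lower, at -0.35, -0.26 and -0.31. The 50 tested neighbours of each, in that order, had medians of -0.32, 0.0026 and -0.06. Among all tested genes with a promoter window, those with an E-box had a median of -0.07 with 41.3% lower, and those without had a median of 0.00 with 31.5% lower. Of the 6 genes with the antioxidant response element core, Psmc6 and Psmd9 were lower and Psmb5, Psmb6, Psmd12 and Psme4 did not pass. Across tested genes 32.7% were lower both with and without that motif.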

How the data were processed

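RNA abundance was measured in 3 MAX restored and 3 control libraries; per the labels' protocols a New England BioLabs kit and 500 ng of total RNA per library were used. Subread 1.6.0, STAR 2.5.2a, bcl2fastq 1.8.4 and mm9 appear in the submitters' processing notes. Per the file headers the authors counted reads without strand over exons of the UCSC mm9 genes, with no option set for multi-mapping or multi-overlapping reads. The deposited values are raw counts, 1 file per library. Exons of other genes covered 12.5% of Psmb5 (Mir686), 4.11% of Psma4 (AY074887) and 0.409% of Psme1 (Emc9), so some of their reads were dropped.

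Genes kept by filterByExpr of edgeR 4.0.16 (minimum count 10; 12664 of 24391) were normalised by TMM. Groups were compared by edgeR's quasi-likelihood test (R 4.3.3, two-sided, no covariate), and p-values were adjusted by Benjamini-Hochberg across these genes, with 0.05 as threshold. SE is the absolute log2 fold change over the root of the F statistic. CPM were computed from the counts after TMM scaling, and TPM use the files' exon length. Sequence sharing was counted in 50-base stretches of GENCODE transcripts (GRCm38), and neighbourhoods take 25 tested genes on each side in mm9 order. Members and lists were chosen with earlier results of these data known. Values in each library are given for the extremes of each class, the catalytic subunits, every called gene past 0.5 and those called against their class, and up to 4 genes with the smallest p are named per list; others named were chosen after their values were seen. In simulated data made from these libraries for this comparison (12549 genes), the test recovered 60% of the genes given a 1.25-fold change. It recovered 84% of those given 1.5-fold, 98% for 2-fold and 96% for 4-fold, and called 13 of 12349 unchanged genes. In the data 32.3% of genes were called lower and 31.2% higher, far more than were changed in the simulation. The recovery there need not hold for these data. Alternatives were DESeq2 1.42.0, limma 3.58.1 voom, other scalings, filters and thresholds, the replicate number as a block, a length trend, and leaving out each library. Some genes of these lists are not reported here.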

Additional observations from a re-analysis of the deposited data

How the results depend on the processing

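Over 18 alternatives, 12 of the 24 proteasome genes called lower kept their call in every one, and 18 did so in those other than the length trend and the minimum effect. With the length trend removed 17 genes were lower and 7 higher, the median was -0.072, the core had 6 lower and 1 higher (median -0.11), the lid 2 higher (median 0.043), and the ATPase and accessory medians were -0.020 and -0.17. Of all genes 30.7% were then lower and 31.3% higher. With the replicate number as a block as well, 8 were higher, 3 of them in the lid, where 31.5% of all genes were higher. Core calls and all medians stayed the same to 2 digits. The block alone gave 24 lower and 3 higher, where 32.3% and 31.1% of all genes were. Same-numbered libraries did not deviate together (correlations of 0.0035, 0.035 and -0.024), and not every library correlated best with its own number. Upper quartile scaling gave 6 higher, 2 in the lid, where 33.5% of all genes were higher. The median of all genes was then 0.022, beside -0.0036 with TMM. A minimum count of 50 gave 5 higher, 1 in the lid, where 33.2% of all genes were higher. Requiring an absolute log2 fold change of 0.25 left 15 lower and 1 higher, with 7 lower in the core, 1 in the ATPase ring and 1 in the lid, 0 higher in the base and 1 higher among activators, chaperones and PI31. Of all genes 23.4% were lower and 23.7% higher by at least that much. Leaving out each library in turn gave 20 to 25 lower and 3 to 6 higher. Both upper counts came without control 1, where 32.9% of all genes were lower and 31.5% higher. Medians were -0.18 to -0.14, and -0.27 to -0.19 in the core, with 0 to 2 higher in the lid. The cause of these moves was not tested.

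Signs turned in 8 genes, of which Psmb7 was called in the first place. Psmd6 gave 0.0024 with RLE scaling and with voom, 0.025 with upper quartile scaling, 0.020 with a minimum count of 50 and 0.12 with the length trend removed, with or without the block. Psmc3 gave 0.019 with upper quartile scaling, 0.014 with a minimum count of 50 and 0.070 with the length trend removed, with or without the block. Without the length trend Psmc5 gave 0.053, Psmb7 0.014, Psmb2 0.057 and Psmc4 0.049, and with the block as well Psmc5 gave 0.053, Psmb7 0.014, Psmb2 0.057 and Psmc4 0.050. Over the 6 fits that each left out a library Psmd1 ranged from -0.0004 to 0.044, Psmd6 from -0.053 to 0.074, Psme2 from -0.040 to 0.078 and Psmc3 from -0.022 to 0.016. Genes not called are not shown to be unchanged. In simulated data at these depths small changes were often missed, though far fewer genes changed there than were called here.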
